A study of Mus musculus with 6 samples.

Results

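The enzymes that turn arachidonic acid into prostaglandins and leukotrienes were followed in whole mouse skin through 10 genes: *Ptgs1*, *Ptgs2*, *Ptges*, *Ptgds* and *Hpgd* of the cyclooxygenase branch and *Alox5*, *Alox5ap*, *Ltc4s*, *Lta4h* and *Alox15* of the lipoxygenase branch. They were taken by gene symbol from a table of 23951 genes, and each symbol was found. Cyclooxygenases convert arachidonic acid, which phospholipases free from membranes, to prostaglandin H2, and terminal synthases turn this into individual prostaglandins. 5-Lipoxygenase makes leukotriene A4 with the help of a partner protein, and separate enzymes pass it on to leukotriene B4, which attracts neutrophils, or to the cysteinyl leukotrienes, which act on vessels and smooth muscle. In skin these lipids are known for their part in redness, pain, itch and the recruitment of leukocytes.

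The skin came from 3 *JunB*Δep mice (labelled JunB dep), which lack the AP-1 transcription factor JunB in keratin 5-expressing cells and so keep it in dermal and immune cells, and from 3 control littermates (labelled JunB +/+). All mice were C57Bl/6 and 6 to 7 months old, no treatment is named, and the study took lesional skin from the mutants. Poly(A) RNA was sequenced, and levels are in FPKM, fragments scaled to transcript length and to the mapped fragments of the library, a unit that allows levels of different genes to be compared per length. Mice carry the replicate numbers 0, 1 and 2 of the labels, and values are given below in that order.

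The labels were checked first. In controls *Junb* stood at 59.3, 72.4 and 56.9 FPKM, and the libraries labelled *JunB*Δep gave 129.6, 42.8 and 28.0 FPKM. The library labelled *JunB*Δep replicate 0 thus lay above every control, and the others lay below. Whole skin includes dermal and immune cells, which keep the gene, so this level cannot test the label of that library. This library also stands apart in its markers of cell types. It held 3798 FPKM of 5 summed markers of mucosal epithelium, against at most 1.41 FPKM elsewhere, and its sum of 9 neutrophil markers, 25029 FPKM against 20.6 to 1799 FPKM elsewhere, came almost wholly from *S100a8* at 24456 FPKM. Of the other neutrophil markers, *Csf3r*, *Cxcr2*, *Retnlg*, *Mmp8* and *Mmp9* were also highest there, while *S100a9*, *Camp* and *Ngp* were highest in control replicate 0. Without read counts, a listed 0 cannot be read as absence, and the library labelled *JunB*Δep replicate 0 lists *S100a9* at 0. Its 5 adipocyte markers summed to 4.15 FPKM, against 442 to 2657 FPKM. *Krt14*, a keratin of basal keratinocytes, is listed at 0 there, although its partner *Krt5* was at 3725 FPKM, and all 8 keratinocyte markers were above 0 in the other 5 libraries. Markers of skeletal muscle took 2.73% to 3.20% of all FPKM in controls and 0.239% to 0.674% in *JunB*Δep mice. The summed FPKM of a library lay between 481078 and 630363, and read depth is unknown. Below, *JunB*Δep mice are the mice so labelled, this library among them, although its *Junb* lay above every control. For the enzymes, the counts over the whole pathway and the medians of its lists, values are therefore also given without the library labelled *JunB*Δep replicate 0. In whole skin, fewer cells of a type and less RNA per cell cannot be told apart.

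In the skin of control mice the most abundant of the enzymes was *Ptgs1*, the constitutive cyclooxygenase, with a mean of 52.2 ± 14.4 FPKM (SD, n = 3). *Lta4h* followed at 32.3 ± 3.65 FPKM, then *Alox5ap* at 30.4 ± 11.0 FPKM, *Hpgd* at 17.5 ± 2.58 FPKM, *Ltc4s* at 16.3 ± 8.46 FPKM, *Ptges* at 14.6 ± 1.87 FPKM, *Ptgds* at 8.99 ± 4.71 FPKM and *Alox5* at 5.83 ± 2.49 FPKM. *Alox15* and *Ptgs2* were far below, at 0.787 ± 0.704 and 0.572 ± 0.156 FPKM. Neighbours in this order overlapped between control mice with 1 exception, the step from *Alox5* to *Alox15*. By mean level over the 6 mice, *Ptgs1* lay above 88.0% of all tested genes and *Alox15* above 20.3%.

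The genotypes were tested with limma on log2(FPKM + 0.5), where differences of low genes come out too small, over 17021 genes whose mean reached 0.1 FPKM. All 10 enzymes passed this filter. None of the 10 was called at an adjusted p below 0.05, and 0 of 10 had an unadjusted p below 0.05, which does not show that their levels were equal. Over all genes limma called 235 (1.38%) lower in *JunB*Δep skin and 0 (0.0%) higher, while 1044 lower and 243 higher genes had an unadjusted p below 0.05. The 235 included 7 of the 9 skeletal muscle markers. All 9 were lower without overlap, so muscle genes are part of this background. The count of 235 fell to 0 without any single control or without *JunB*Δep replicate 1, and it was 120 lower and 11 higher without the library labelled *JunB*Δep replicate 0. With all 6 mice, the 235 also fell to 0 when the replicate number or the number series of the sample names was taken as a block. In 1 of the 10, *Ptges*, all 3 libraries labelled *JunB*Δep lay above all controls, which held for 5.62% of all tested genes, and in 0 of 10 all lay below, against 9.16%. Without the library labelled *JunB*Δep replicate 0, *Ptges* lay above, which leaving out a library of this group cannot change, and *Hpgd* came to lie below all controls, against 11.1% and 13.0% of all genes in these directions. The median log2 difference was -0.01 over the 10 enzymes and 0.03 over all tested genes. The exact permutation test of a single gene, two-sided, cannot give a p below 0.1 when each group holds 3 mice.

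**Figure D1:**
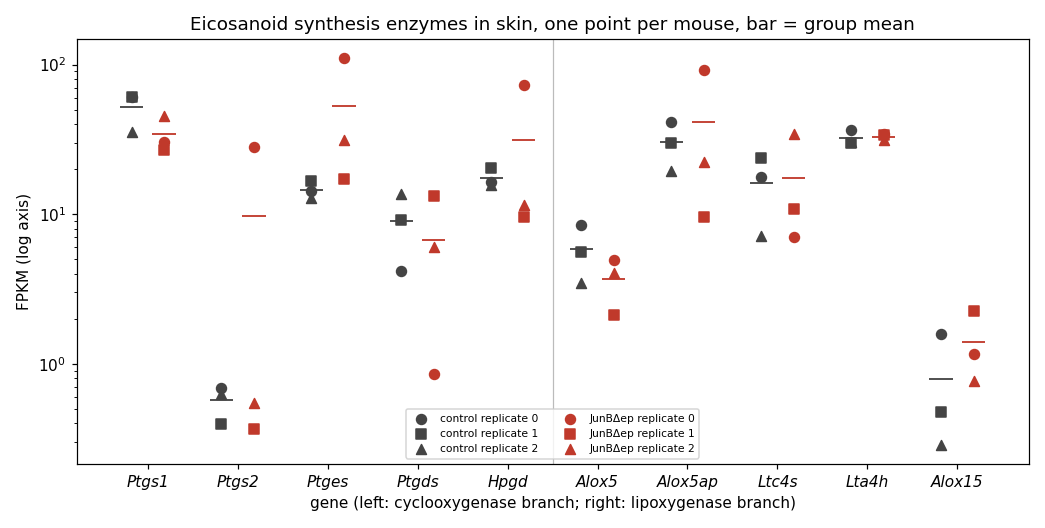
FPKM on a log axis of the 10 enzymes, with 1 point for each control mouse (grey) and *JunB*Δep mouse (red), a marker shape for each replicate number and a bar at each group mean. *Ptgs2* was at 28.3 FPKM in the library labelled *JunB*Δep replicate 0 and at most 0.688 FPKM in the others, *Ptges* was above the controls in all 3 libraries labelled *JunB*Δep, and *Lta4h* was within 29.7 to 36.4 FPKM throughout.

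*Ptges* (chromosome 2, 30744991 to 30785383 on mm9, 3 exons) encodes the inducible microsomal synthase that makes prostaglandin E2. It was at 14.3, 16.6 and 12.9 FPKM in controls and at 110.3, 17.1 and 31.2 FPKM in *JunB*Δep mice. The groups did not overlap, but *JunB*Δep replicate 1 exceeded the highest control only narrowly. The log2 difference was 1.40 (standard error 0.65, 95% interval -0.19 to 2.98, adjusted p = 0.712 from limma; exact permutation p = 0.1, the smallest possible), and 0.65 without the library labelled *JunB*Δep replicate 0. The gene model Gm13400 overlaps *Ptges* on the same strand, so reads of both may be mixed. *Ptges2* and *Ptges3*, which encode other prostaglandin E synthases, overlapped between the groups, with controls from 15.0 to 18.8 and from 60.8 to 70.1 FPKM and *JunB*Δep mice from 13.1 to 18.5 and from 66.9 to 103.8 FPKM.

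*Ptgs2* (chromosome 1, 151947254 to 151955140, 10 exons), the cyclooxygenase that inflammatory signals induce, was at 0.688, 0.395 and 0.633 FPKM in controls. The library labelled *JunB*Δep replicate 0 reached 28.3 FPKM, 49.5 times the control mean, while the other *JunB*Δep mice were at 0.370 and 0.547 FPKM, below or within the range of the controls. On the log2 scale the groups differed by 1.48 (standard error 1.34, 95% interval -1.79 to 4.76, adjusted p = 0.726 from limma), and -0.16 without that library. A single mouse thus set the group difference.

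*Ptgs1* (chromosome 2, 36085946 to 36107792, 11 exons) was at 60.6, 60.6 and 35.6 FPKM in controls and at 30.3, 26.8 and 45.5 FPKM in *JunB*Δep mice. Only *JunB*Δep replicate 2 lay inside the control range, and the other *JunB*Δep mice lay below it. The log2 difference was -0.60 (standard error 0.30, 95% interval -1.33 to 0.13, adjusted p = 0.720 from limma), which came to -0.53 without the library labelled *JunB*Δep replicate 0 and between -0.85 and -0.45 when any mouse was left out. As a share of both cyclooxygenases, *Ptgs2* made up 0.648% to 1.75% of their summed FPKM in controls, 1.36% and 1.19% in *JunB*Δep replicates 1 and 2, and 48.3% in the library labelled *JunB*Δep replicate 0. The sum of both genes in that library, 58.6 FPKM, lay inside the 36.2 to 61.3 FPKM of controls.

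*Hpgd* (chromosome 8, 58773349 to 58799843, 7 exons) encodes 15-hydroxyprostaglandin dehydrogenase, which inactivates prostaglandins. It was at 16.4, 20.4 and 15.6 FPKM in controls and at 72.7, 9.61 and 11.5 FPKM in *JunB*Δep mice. The library labelled *JunB*Δep replicate 0 was thus 4.16 times the control mean, while the other *JunB*Δep mice were at 0.550 and 0.660 times that mean, below every control. The log2 difference of 0.22 (standard error 0.76, 95% interval -1.63 to 2.06, adjusted p = 0.928 from limma) turned to -0.70 without that library (standard error 0.18, adjusted p = 0.335 from limma).

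Set against each other within a mouse, some of these enzymes kept the labelled groups apart, in ratios picked with the values in view. *Hpgd* over *Ptges*, the inactivating enzyme over the prostaglandin E2 synthase, was 1.15, 1.23 and 1.21 in controls and 0.660, 0.562 and 0.369 in *JunB*Δep mice. All 3 libraries labelled *JunB*Δep lay below all controls, replicate 0 included, although its *Hpgd* and *Ptges* were each the highest of the 6 mice. *Ptges* over *Ptgs1* was 0.236, 0.274 and 0.363 in controls and 3.64, 0.639 and 0.687 in *JunB*Δep mice. Of the 5 ratios computed, the other three overlapped between the groups. Since *Ptges* had been seen above all controls, these ratios only describe the 6 mice, and nothing is drawn from their separation.

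**Figure D2:**
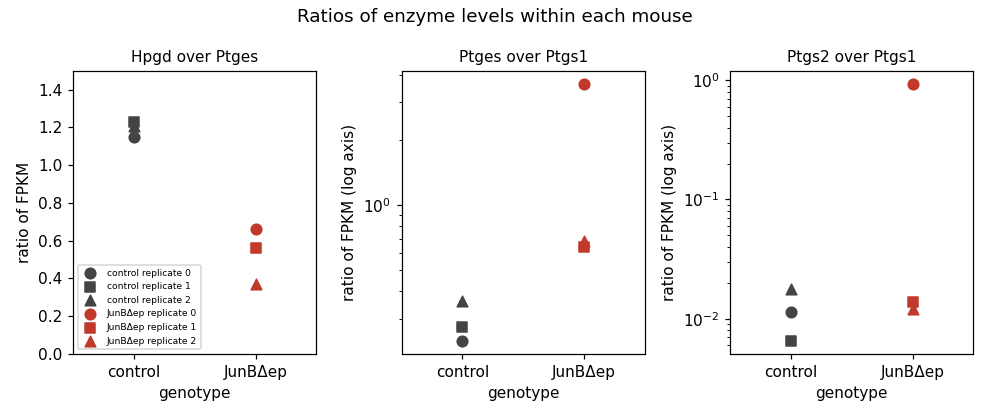
Ratios of FPKM within each mouse for *Hpgd* over *Ptges* (linear axis), *Ptges* over *Ptgs1* and *Ptgs2* over *Ptgs1* (log axes), by genotype, with a marker shape for each replicate number. The first separates controls (1.15 to 1.23) from *JunB*Δep mice (0.369 to 0.660), the second runs the other way, and in the third only the library labelled *JunB*Δep replicate 0 (0.934) stands apart.

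*Ptgds* (chromosome 2, 25322229 to 25325566, 5 exons) encodes the lipocalin-type prostaglandin D2 synthase. It was at 4.17, 9.22 and 13.6 FPKM in controls and at 0.861, 13.3 and 6.02 FPKM in *JunB*Δep mice. The library labelled *JunB*Δep replicate 0 had the lowest value, and the other *JunB*Δep mice lay inside the control range. Its log2 difference was -0.80 (standard error 0.90, 95% interval -2.98 to 1.39, adjusted p = 0.769 from limma), and 0.14 without that library. *Hpgds*, the prostaglandin D2 synthase of haematopoietic cells, was at 11.4, 18.6 and 6.93 FPKM in controls and at 3.06, 11.3 and 14.9 FPKM in *JunB*Δep mice. It too was lowest in the library labelled *JunB*Δep replicate 0.

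Because the deleted gene encodes an AP-1 subunit, the 250 bases upstream of the start were searched for AP-1 motifs in the 8 enzymes that the promoter table of RefSeq on GRCm38.p6 holds. The motifs, each read on both strands, were TGANTCA for AP-1, the cyclic AMP response element TGACGTCA, and TATAAA, which overlaps neither. The windows of *Ptgs2* and *Ptges*, the enzymes with the largest positive log2 differences, and of *Ptgds*, the only one of the 8 with a match, are shown with matches in capitals. Their positions on GRCm38.p6 are chr1:150099781-150100030 on the plus strand for *Ptgs2*, chr2:30903298-30903547 on the minus strand for *Ptges* and chr2:25469750-25469999 on the minus strand for *Ptgds*.
Ptgs2: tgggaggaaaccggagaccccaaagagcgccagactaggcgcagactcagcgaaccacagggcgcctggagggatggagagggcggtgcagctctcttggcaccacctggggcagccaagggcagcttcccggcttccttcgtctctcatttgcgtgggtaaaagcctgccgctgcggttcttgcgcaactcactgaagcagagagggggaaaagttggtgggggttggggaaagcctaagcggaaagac
Ptges: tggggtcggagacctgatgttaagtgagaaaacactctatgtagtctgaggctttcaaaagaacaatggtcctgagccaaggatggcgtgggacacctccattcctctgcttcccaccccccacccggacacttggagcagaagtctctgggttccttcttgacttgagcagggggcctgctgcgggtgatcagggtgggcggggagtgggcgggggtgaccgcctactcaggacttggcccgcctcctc
Ptgds: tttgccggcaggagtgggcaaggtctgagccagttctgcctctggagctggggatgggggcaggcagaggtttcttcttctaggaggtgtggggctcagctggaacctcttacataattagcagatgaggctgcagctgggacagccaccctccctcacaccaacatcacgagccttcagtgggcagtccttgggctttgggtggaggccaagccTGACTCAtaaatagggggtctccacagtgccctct
In the *Ptgds* window the AP-1 motif TGACTCA lies 35 to 29 bases before the start. Of all 32851 windows of the same length, 6.75% hold TGANTCA, 1.55% hold TGACGTCA and 12.4% hold TATAAA. The match is a description of letters, and the windows of *Ptgs1*, *Hpgd*, *Alox5*, *Ltc4s* and *Lta4h* hold none of the 3 motifs. *Alox5ap* and *Alox15* have no entry in the table.

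In the lipoxygenase branch no enzyme separated the genotypes. *Alox5* (chromosome 6, 116360095 to 116411196, 11 exons), which encodes 5-lipoxygenase, was at 8.44, 5.57 and 3.48 FPKM in controls and at 4.93, 2.11 and 4.06 FPKM in *JunB*Δep mice. *JunB*Δep replicate 1 lay below the controls and the other *JunB*Δep mice inside their range. Between the groups the log2 difference was -0.58 (standard error 0.41, 95% interval -1.59 to 0.43, adjusted p = 0.722 from limma), which came to -0.80 without the library labelled *JunB*Δep replicate 0 and between -0.88 and -0.27 when any mouse was left out.

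*Alox5ap* (chromosome 5, 150076634 to 150099621, 5 exons) encodes the 5-lipoxygenase activating protein, which presents arachidonic acid to the enzyme. It was at 41.6, 30.0 and 19.5 FPKM in controls and at 91.7, 9.56 and 22.5 FPKM in *JunB*Δep mice, so that *JunB*Δep mice had both the highest and the lowest value. The log2 difference was -0.09 (standard error 0.81, 95% interval -2.05 to 1.87, adjusted p = 0.973 from limma). It was -0.96 without the library labelled *JunB*Δep replicate 0, 0.64 without *JunB*Δep replicate 1, 0.16 without control replicate 0 and 0.04 without *JunB*Δep replicate 2. *Alox5ap* over *Alox5* was 4.53 to 5.62 in 5 mice and 18.6 in the library labelled *JunB*Δep replicate 0.

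Myeloid cells are the known source of *Alox5ap*, so their markers are given beside it. Over control replicates 0, 1 and 2 and then the *JunB*Δep replicates, the 9 macrophage markers summed to 452, 270, 280, 447, 127 and 295 FPKM, with none at 0. The 9 neutrophil markers summed to 1799, 40.5, 20.6, 25029, 27.2 and 145 FPKM. In the library labelled *JunB*Δep replicate 0, *S100a8* alone gave 24456 FPKM of this sum, and *S100a9* is listed at 0. *Mmp8* is listed at 0 in *JunB*Δep replicate 1. The part of myeloid cells in the levels of *Alox5ap* was not tested.

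*Ltc4s* (chromosome 11, 50049971 to 50052118, 5 exons), leukotriene C4 synthase, makes the first of the cysteinyl leukotrienes. It was at 17.7, 23.9 and 7.19 FPKM in controls and at 7.03, 10.9 and 34.4 FPKM in *JunB*Δep mice, with the highest and the lowest value again in *JunB*Δep mice. The log2 difference was -0.06 (standard error 0.68, 95% interval -1.73 to 1.60, adjusted p = 0.977 from limma), and its sign changed with the mice used. The gene model Gm16641 overlaps *Ltc4s* on the other strand, and whether reads were assigned by strand is not stated. It was 0.41 without the library labelled *JunB*Δep replicate 0, 0.29 and 0.07 without control replicates 1 and 0, 0.11 without *JunB*Δep replicate 1 and -0.70 without *JunB*Δep replicate 2.

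The 6 mice had the same order, from highest to lowest, in *Ltc4s* and in the sum of 5 adipocyte markers, which came to 756, 1109 and 442 FPKM in controls but 4.15, 577 and 2657 FPKM in *JunB*Δep mice, with none at 0. Of 130 pairs of an enzyme and a marker sum, this was the 1 pair with the same order, and within the list *Adipoq* and *Cidec*, 2 of the 5 markers, had it by themselves. The 9 markers of mast cells, a known source of leukotriene C4, were in another order, at 184, 336 and 140 FPKM in controls and at 256, 111 and 202 FPKM in *JunB*Δep mice, with none at 0. The part of either cell type in *Ltc4s* was not tested.

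**Figure D3:**
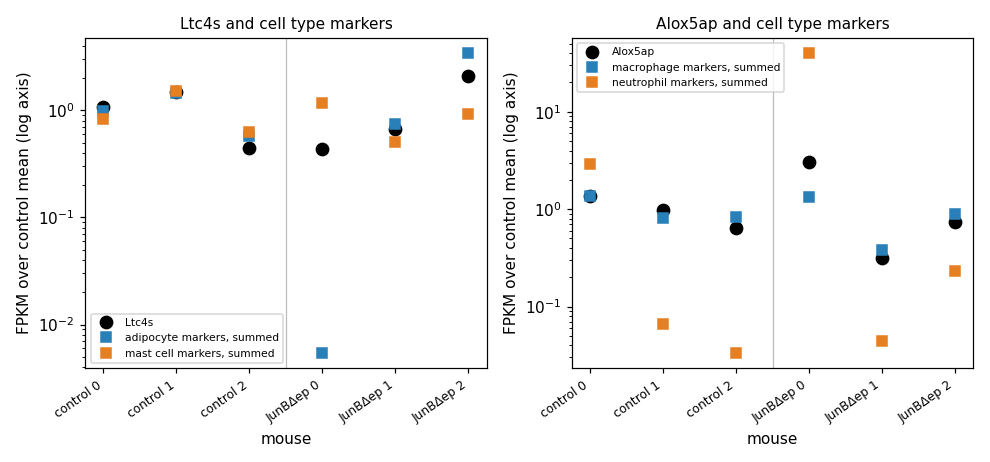
*Ltc4s* with summed adipocyte and mast cell markers (left) and *Alox5ap* with summed macrophage and neutrophil markers (right), each as FPKM over its control mean on a log axis, with 1 point per mouse. *Ltc4s* and the adipocyte markers share the order of the mice although the markers reach 4.15 FPKM in the library labelled *JunB*Δep replicate 0, where *Ltc4s* was at 7.03 FPKM.

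*Lta4h* (chromosome 10, 92916141 to 92947641, 19 exons) encodes leukotriene A4 hydrolase, which makes leukotriene B4. It was the steadiest of the 10, at 36.4, 29.7 and 30.6 FPKM in controls and at 34.1, 33.9 and 31.1 FPKM in *JunB*Δep mice, and the highest mouse was 1.23 times the lowest. All *JunB*Δep mice lay inside the control range, and the log2 difference was 0.04 (standard error 0.15, adjusted p = 0.935 from limma). Its 95% interval of -0.32 to 0.40 was the narrowest of the 10, and the difference was 0.014 without the library labelled *JunB*Δep replicate 0 and -0.017 without control replicate 1.

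*Alox15* (chromosome 11, 70157654 to 70165533, 14 exons) encodes the 12/15-lipoxygenase of leukocytes. It was at 1.59, 0.479 and 0.289 FPKM in controls and at 1.16, 2.25 and 0.772 FPKM in *JunB*Δep mice. *JunB*Δep replicate 1, the lowest mouse in *Ptgs1*, *Ptgs2*, *Hpgd*, *Alox5* and *Alox5ap*, was the highest here, and the groups overlapped. This gave a log2 difference of 0.61 (standard error 0.47, 95% interval -0.52 to 1.75, adjusted p = 0.722 from limma), and 0.67 without the library labelled *JunB*Δep replicate 0. With any mouse left out, the difference ranged from 0.31 without *JunB*Δep replicate 1 to 1.03 without control replicate 0. The 5 markers of eosinophils, which can express such an enzyme, summed to at most 0.605 FPKM in *JunB*Δep mice. Control replicates 1 and 2 had at most 1.06 FPKM, and control replicate 0 had 7.23 FPKM, of which *Prg2* made up 5.58 FPKM. *Epx*, which defines the lineage, is listed at 0 in all 3 libraries labelled *JunB*Δep and in control replicate 1. The part of these cells in *Alox15* was not tested.

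**Figure D4:**
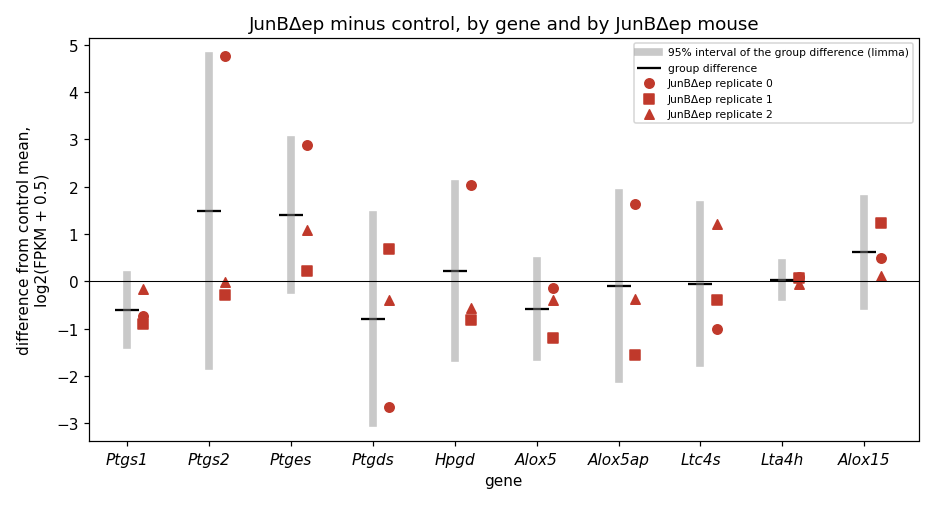
Log2 difference between *JunB*Δep and control skin for each enzyme (black dash) with its 95% interval from limma (grey bar), and each *JunB*Δep mouse against the control mean (red). All 10 intervals include 0, and the widest, of *Ptgs2*, runs from -1.79 to 4.76.

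*JunB*Δep libraries held 6 of the 10 highest and 7 of the 10 lowest values, close to their 62.6% of the highest and 57.5% of the lowest values over all tested genes. The library labelled *JunB*Δep replicate 0 was the highest of the 6 for *Ptgs2*, *Ptges*, *Hpgd* and *Alox5ap* and the lowest for *Ptgds* and *Ltc4s*. Over all tested genes it was the highest for 29.7% and the lowest for 32.0%. *JunB*Δep replicate 1 was the lowest for 5 of the 10, against 17.6% of all tested genes.

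For the 4 enzymes with the largest range over the mice, the genes with the most alike pattern were sought among 13742 genes whose mean reached 1 FPKM, by the root mean square difference of centred log2 values over the 6 mice. Nearest to *Ptges* were *Socs3*, a feedback inhibitor of cytokine signalling (0.09), *Nod2*, a sensor of bacterial cell wall fragments (0.16), and *Slc10a6* (0.19). *Socs3* was at 13.2, 18.97 and 13.6 FPKM in controls and at 114.8, 17.7 and 32.5 FPKM in *JunB*Δep mice. Nearest to *Ptgs2* were the glycerol kinase *Gyk* (0.08), the homeobox gene *Pitx1* (0.12) and the serine protease *Tmprss11a* (0.19), each highest by far in the library labelled *JunB*Δep replicate 0. Nearest to *Alox5ap* were *Spi1*, the myeloid transcription factor PU.1 (0.13), *Pirb*, an inhibitory receptor of myeloid cells (0.17), and *AB124611* (0.18). *Ptgds* had less close neighbours, *Gabrp* (0.32), the hair follicle stem cell gene *Lgr5* (0.35) and *Il1f10* (0.36). These distances describe 6 mice and were not tested.

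The rest of the pathway was covered by 55 further genes in 6 lists. Of these, 51 passed the filter on low values, 0 were called in either direction by limma, and 6 had an unadjusted p below 0.05. Of all 17021 tested genes, 235 were called and 1287 had an unadjusted p below 0.05 in limma. Among the 51, all libraries labelled *JunB*Δep lay below all controls in 5 genes and above them in 1, and over all tested genes these shares were 9.16% and 5.62%. Without the library labelled *JunB*Δep replicate 0, 7 lay below and 1 above, against 13.0% and 11.1% of all tested genes. The 2 that joined, *Alox12* and *Ptgir*, are named after their values were seen. The median log2 difference of the 51 was -0.13 with and without that library.

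Of the 13 tested phospholipases A2, which release fatty acids from membranes, 3 had groups that did not overlap, all lower in *JunB*Δep mice, where 9.16% of all tested genes were lower without overlap. The list's median log2 difference was -0.17, and -0.08 without the library labelled *JunB*Δep replicate 0. *Pla2g12a* was at 27.9, 41.5 and 32.6 FPKM in controls and at 17.1, 17.6 and 19.1 FPKM in *JunB*Δep mice, with a log2 difference of -0.89 (standard error 0.19, adjusted p = 0.129 from limma). *Pla2g2d* was at 8.09, 3.21 and 4.99 FPKM and at 1.39, 1.65 and 2.23 FPKM (log2 difference -1.33, adjusted p = 0.291 from limma). *Pla2g4a*, the cytosolic phospholipase A2 that feeds arachidonic acid to both branches, was at 9.36, 8.17 and 7.53 FPKM and at 4.81, 6.00 and 6.51 FPKM (log2 difference -0.50, adjusted p = 0.642 from limma). None of these 3 genes passed the test. The most abundant phospholipase, *Pla2g2f*, had means of 177.7 and 140.7 FPKM, and *Pla2g4f*, which followed *Pla2g12a* in level, had means of 16.4 and 25.2 FPKM in controls and *JunB*Δep mice. Without the library labelled *JunB*Δep replicate 0 the *JunB*Δep means were 163.6 and 21.2 FPKM.

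Of the 5 other lipoxygenases, *Alox8*, the mouse 8-lipoxygenase, was at 0.773, 0.662 and 8.98 FPKM in controls and at 16.5, 15.3 and 15.8 FPKM in *JunB*Δep mice. The 3 libraries labelled *JunB*Δep were close to each other and above every control, while control replicate 2 was far above the other controls. The log2 difference of 2.76 (standard error 0.82, 95% interval 0.77 to 4.75, adjusted p = 0.370 from limma) was the largest of the pathway. *Alox12e* had means of 99.7 FPKM in controls and 60.5 FPKM in *JunB*Δep mice, which became 81.9 FPKM without the library labelled *JunB*Δep replicate 0, at 17.6 FPKM there. The barrier lipoxygenases *Alox12b* and *Aloxe3* had means of 31.4 and 38.7 FPKM and of 23.2 and 26.3 FPKM, and 35.3 and 29.6 FPKM in *JunB*Δep mice without it. The median log2 difference of the list was 0.15, and 0.18 without that library.

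Among 8 tested synthases and reductases, *Fam213b*, a prostaglandin F synthase, was at 109.8, 152.0 and 73.8 FPKM in controls and at 56.5, 40.6 and 68.0 FPKM in *JunB*Δep mice, without overlap (log2 difference -0.99, adjusted p = 0.458 from limma). *Ptges3* and *Cbr1* were the next in level, and their groups overlapped. In the list of export, conversion and breakdown, 12 genes were tested and in none did the groups keep apart. Its most abundant genes, *Mgst3*, *Ptgr1* and *Dpep1*, had control means of 183.5, 47.5 and 32.0 FPKM and *JunB*Δep means of 148.8, 42.3 and 21.5 FPKM. Without the library labelled *JunB*Δep replicate 0, the median log2 difference went from -0.04 to 0.01 in the synthases and from 0.03 to -0.14 in this list.

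Of 8 tested prostanoid receptors, 7 had a negative log2 difference, as had 46.6% of all tested genes, and the median of the 8 was -0.38. Without the library labelled *JunB*Δep replicate 0, 6 were negative with a median of -0.20, against a median of 0.03 over all tested genes. The share of negative genes over all genes was not taken without that library. *Ptgfr*, the prostaglandin F receptor, was at 3.11, 5.90 and 2.63 FPKM in controls and at 1.00, 1.55 and 2.22 FPKM in *JunB*Δep mice, the only one whose groups did not overlap (log2 difference -1.04, adjusted p = 0.547 from limma). The prostaglandin E2 receptors *Ptger3*, *Ptger4* and *Ptger1* were the most abundant, with control means of 12.4, 6.97 and 4.31 FPKM and *JunB*Δep means of 7.67, 6.13 and 3.84 FPKM, which became 10.9, 7.50 and 4.18 FPKM without that library. Of the 5 tested receptors for leukotrienes and related ligands, *Ltb4r1*, the high-affinity leukotriene B4 receptor, was the most abundant, at 12.8, 18.2 and 9.48 FPKM in controls and at 46.4, 13.6 and 16.1 FPKM in *JunB*Δep mice. *Ltb4r2* and the formyl peptide receptor *Fpr2* were at 24.1 and 23.8 FPKM in the library labelled *JunB*Δep replicate 0 and at most 5.89 and 3.23 FPKM in the others. The median log2 difference of the leukotriene receptors turned from 0.51 to -0.40 without that library, and no receptor was called with or without it.

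**Figure D5:**
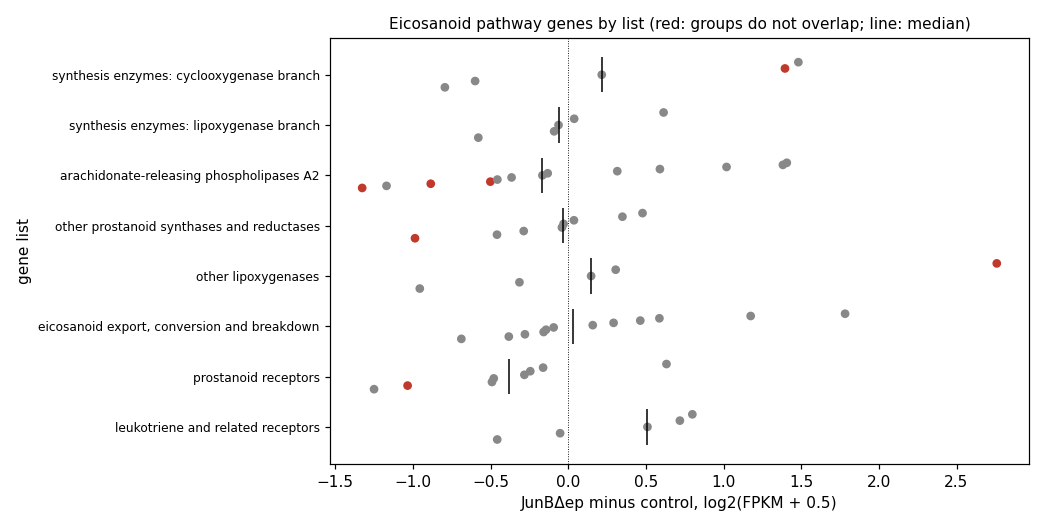
Log2 difference between *JunB*Δep and control skin for each tested gene of the pathway, by list, with the list median as a line and in red the genes whose groups do not overlap. *Alox8* lies farthest to the right at 2.76, and the red points among the phospholipases, the synthases and the prostanoid receptors lie left of 0.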

How the data were processed

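RNA of whole skin from 3 JunBΔep and 3 control mice was sequenced by the authors from poly(A), strand-marked libraries. Per the paper's methods and the submitters' processing notes, FastQC was run and reads were aligned to mm9 with TopHat2 2.0.10, Bowtie 1.0.0 and SAMtools 0.1.19 with iGenomes annotation. The authors deposited FPKM per gene and mouse. The notes also name Cufflinks, but which tool made the FPKM, and whether libraries were scaled further, is not stated in the sources used here. Read counts were not analysed here, so depth is unknown and no counting interval is given. 0 columns were left unused.

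Genes whose mean reached 0.1 FPKM were compared on log2(FPKM + 0.5) with limma 3.58.1 (intensity trend, no block) in R 4.3.3, two-sided, with Benjamini-Hochberg adjustment over all 17021 genes and a threshold of 0.05. The study's own test was on read counts. From it the paper reports differentially expressed genes, with several cytokine signalling pathways upregulated in mutant skin. The absence of genes called higher therefore holds only for the test used here. Exact permutation tests used scipy 1.17.1. The mice were littermates per the labels, and their sex is not given by mouse. The procedure was tested on simulated data.

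The enzymes, the pathway and marker lists, the rule for named genes and the alternatives were chosen with earlier results of these data known. The rule names the 10 enzymes, Junb, pathway genes that were called, that had groups without overlap or that were among the 3 most abundant of their list, markers beside an enzyme, and the 3 most alike genes of the 4 enzymes with the widest range. Hpgds, Ptges2 and the within-mouse ratios were added after their values were seen. Positions of genes were read from GENCODE vM1 (mm9), promoter windows from RefSeq (GRCm38.p6). Alternatives were other pseudocounts (0.1, 1), a filter at 1 FPKM or none, median-ratio and quantile scaling, limma without trend, 2 blocks and each mouse left out. Overlap between groups for the enzymes, and values of the pathway lists, were also taken without the library labelled JunBΔep replicate 0, alternatives added after the data were seen.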

Additional observations from a re-analysis of the deposited data

How the results depend on the processing

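Of the 15 alternatives, none led to a call for any of the 10 enzymes, and the lowest adjusted p from limma was 0.244. Only 4 of them, Ptgs1, Ptges, Alox5 and Alox15, kept their direction in all 15. With a mouse left out, the log2 difference ranged from -0.16 to 2.37 for Ptgs2, -1.53 to 0.14 for Ptgds, -0.70 to 0.73 for Hpgd, -0.96 to 0.64 for Alox5ap, -0.70 to 0.41 for Ltc4s and -0.017 to 0.13 for Lta4h, and the number of genes called over the whole table from 0 to 251 lower and 0 to 11 higher. The 0 came without any single control or without JunBΔep replicate 1, where 759 to 884 lower genes had an unadjusted p below 0.05, and the library labelled JunBΔep replicate 0, when left out, gave 120 lower and 11 higher. The sample names fall into 2 number series, control replicates 0 and 1 with JunBΔep replicate 0 and control replicate 2 with JunBΔep replicates 1 and 2. With this series as a block, the number called lower was 0, and the log2 difference was 0.48 for Alox5ap, 0.71 for Hpgd, -1.44 for Ptgds, -0.32 for Alox5, 2.28 for Ptgs2 and 0.067 for Lta4h, each over 1.5 times from its value without it. The replicate block also left 0 genes called, with 854 lower and 118 higher at an unadjusted p below 0.05 in limma. Replicate numbers do not pair the mice, since deviations of same-numbered mice from their group means correlated at 0.12, -0.23 and -0.43 over 17021 genes, and no control correlated best with the JunBΔep mouse of its own number. The unknown depth limits what can be said of genes near or below 1 FPKM, Ptgs2 in 5 mice and Alox15 in 3 among them.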
